A study of Rattus norvegicus with 18 samples.

Results

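The genes described here are 8 tubulin genes and the stathmin gene of the rat, 9 of the 32882 genes in 3 tables of normalized counts. They were chosen by gene name: the α-tubulins *Tuba1a*, *Tuba1b*, *Tuba1c* and *Tuba4a*, the β-tubulins *Tubb5*, *Tubb2a*, *Tubb4b* and *Tubb6*, and *Stmn1*. The list was drawn up with the values of these libraries known, both the contrasts of KO with control cells and the control levels, so that the values of these 9 genes are given as a description, without a test. The libraries are 3′ mRNA-seq of CD4+ T_MBP cells, a cultured Lewis rat T cell line directed against myelin basic protein, which were restimulated with their antigen and thymocytes, transferred into Lewis rats and sorted on day 3 after transfer. There were 6 groups of 3 libraries: *Ets1* KO cells of the spinal cord parenchyma with their controls, *Ets1* KO cells of the spleen with theirs, and *Grk2* KO cells of the spleen with a further set of controls.

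The cells carried a fluorescent protein before Cas9 and the guide RNA were electroporated as a ribonucleoprotein. Control cells, labelled NT and of wild-type genotype, were sorted by BFP, and KO cells were sorted by GFP. The colour and the edit therefore cannot be told apart. For the parenchyma, the study describes KO and control cells as transferred together into the same rats. The KO cells are edited populations, not clones. *Ets1* encodes a transcription factor, and *Grk2* a kinase that phosphorylates activated G protein-coupled receptors. In the *Grk2* table, *Grk2* averaged 158 ± 14.1 normalized counts (SD, n = 3) in controls and 68.3 ± 17.4 in KO cells. *Ets1* did not differ clearly between libraries labelled *Ets1* KO and their controls, and the groups overlapped in both tissues. It had 2551 ± 183 against 2400 ± 150 normalized counts in the parenchyma and 2000 ± 324 against 2077 ± 135 in the spleen. Reads at the 3′ end do not show an edit elsewhere in a transcript. The methods state that KO efficiency of single KO lines was checked before the experiments, and the supplement holds a western blot of ETS1 in control and KO cells.

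Microtubules are polymers of α- and β-tubulin dimers. They form the mitotic spindle of dividing cells and, in T cells, the tracks on which organelles move towards the contact with an antigen-presenting cell. Each of the α and β subunits is encoded by several genes, the isotypes, whose products can mix in a polymer. Stathmin, the product of *Stmn1*, binds free tubulin dimers and favours the shortening of microtubules, and phosphorylation turns it off during mitosis. Cells also adjust tubulin mRNA to the pool of free dimers: TTC5 recognizes the first residues of a tubulin chain as it leaves the ribosome and, with SCAPER and the CCR4-NOT complex, triggers decay of the mRNA.

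Libraries held between 898092 and 2248258 reads on genes, and mitochondrial genes took between 14.1% and 27.4% of them. In the spleen *Ets1* table the KO libraries were deeper (1909862 to 2248258 reads) than the controls (898092 to 1213485 reads), and the third KO library held 21.0% mitochondrial reads against 14.1% and 14.9% in the others. All 9 T cell markers listed had reads in every group, with sums between 2536 and 3593 reads per 1000000 reads on genes (RPM). Neuronal markers, which matter here because neurons are rich in tubulin, summed to at most 19.8 RPM in the parenchyma. Apart from *Nefl*, the other 7 neuronal markers summed to at most 2.83 RPM in any library.

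Promoter sequence from RefSeq (GRCr8) was matched by symbol for all 9 genes. In the 250 bases before the annotated start, the letters CCAAT, or ATTGG on the other strand, occurred in 7 of the 9 genes and in 34.0% of 33469 rat promoters of the same length. The 2 genes without these letters were *Tuba4a* and *Tubb2a*. The letters GGGCGG, searched on both strands, occurred in all 9 promoters and in 30.5% of all. CCGGAAGT, a form of the motif that ETS proteins bind, occurred on neither strand in any of the 9 and in 3.10% of all promoters. The shorter GGAAGT, which is part of it and of other ETS motifs, occurred on the other strand in *Tubb4b* and *Tuba1c*, 2 of the 9, and in 19.2% of all promoters. Other forms were not searched. These matches describe the letters in this window, and not binding. The promoters of *Tubb5*, *Tuba1b*, *Tubb4b* and *Stmn1* are shown, since these genes give the clearest differences described below. Capitals mark CCAAT, whose first base lies 143 bases before the start in *Tubb5*, 96 in *Tuba1b* and 116 in *Stmn1*. *Tubb4b* has 4 copies, at 233, 167, 104 and 64 bases.
Tubb5, chr20:2917327-2917576, plus strand: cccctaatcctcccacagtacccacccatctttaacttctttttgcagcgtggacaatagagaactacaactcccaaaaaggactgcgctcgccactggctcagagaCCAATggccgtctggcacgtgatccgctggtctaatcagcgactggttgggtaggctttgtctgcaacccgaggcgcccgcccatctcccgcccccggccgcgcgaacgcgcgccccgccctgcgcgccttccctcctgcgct
Tuba1b, chr7:131972588-131972837, minus strand: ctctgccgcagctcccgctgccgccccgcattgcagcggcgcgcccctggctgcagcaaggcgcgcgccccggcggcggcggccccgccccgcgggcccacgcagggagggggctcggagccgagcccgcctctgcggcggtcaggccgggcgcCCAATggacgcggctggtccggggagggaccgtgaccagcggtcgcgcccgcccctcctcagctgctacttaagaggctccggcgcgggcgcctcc
Tubb4b, chr3:28438456-28438705, minus strand: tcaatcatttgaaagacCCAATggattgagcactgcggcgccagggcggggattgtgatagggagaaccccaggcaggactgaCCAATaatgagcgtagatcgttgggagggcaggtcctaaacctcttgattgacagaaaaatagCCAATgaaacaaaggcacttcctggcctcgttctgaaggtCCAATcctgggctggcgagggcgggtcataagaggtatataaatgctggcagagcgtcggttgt
Stmn1, chr5:151964929-151965178, plus strand: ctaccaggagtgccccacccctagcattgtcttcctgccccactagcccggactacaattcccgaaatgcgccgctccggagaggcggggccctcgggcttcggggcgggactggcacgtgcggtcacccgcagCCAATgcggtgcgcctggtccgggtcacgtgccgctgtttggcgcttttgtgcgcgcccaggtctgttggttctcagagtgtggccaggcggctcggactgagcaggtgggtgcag

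Of the 9 genes, 6 had a mean of at least 10 normalized counts in each table: *Tuba1a*, *Tuba1b*, *Tuba4a*, *Tubb5*, *Tubb4b* and *Stmn1*. The other 3, *Tuba1c*, *Tubb2a* and *Tubb6*, stayed below this minimum in all tables. *Stmn1* passed narrowly in the parenchyma, with a mean of 10.2. Its mean there was 12.6 in controls and 7.82 in KO libraries, so the controls carried it past the minimum. A normalized count is the reads on a gene divided by the size factor of its library, which the authors computed within each table. Fold changes are differences in log2(normalized count + 1), which understates the change of low genes. Levels are set across tables in RPM. Tubulin genes are close copies of each other. *Tuba1b* (140614751 to 140617721), *Tuba1a* (140637286 to 140640953) and *Tuba1c* (140716112 to 140723714) are neighbours on chromosome 7 of Rnor_6.0, the build of the files, and the RefSeq annotation names 14 pseudogene copies of *Tuba1b*, 5 of *Tuba1a*, 4 of *Tubb4b* and 1 of *Tuba4a*. How the counting split reads among such copies is not known, so that values of single tubulin genes are uncertain in this respect.

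In control cells, each of the 6 genes at or above the minimum had a lower mean level in the parenchyma than in either set of spleen controls. The 3 genes below it did not show this, on few reads, and are described further below. Among the 6 genes at or above the minimum the largest difference was that of *Stmn1*, with 12.03, 9.05 and 5.57 RPM in the 3 parenchymal controls. The spleen controls of the *Ets1* table had 144, 138 and 115 RPM, and the other spleen controls had 142, 92.4 and 86.0. The lowest spleen library thus lay far above the highest parenchymal library, and the mean was 14.9 and 12.01 times higher in the 2 sets of spleen controls. Of the 6520 genes at or above the minimum in both *Ets1* tables, 0.0613% had a lower ratio of parenchyma to spleen than *Stmn1*. This share was 0.844% for *Tuba1b*, 1.18% for *Tubb4b*, 4.06% for *Tubb5*, 8.11% for *Tuba4a* and 8.63% for *Tuba1a*. The parenchymal values of *Stmn1* rest on 8 to 18 reads per library.

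*Tuba1b*, the α-tubulin with the most reads in these cells, had 247 ± 52.4 RPM (SD, n = 3) in parenchymal controls. Its level was 1360 ± 121 in the spleen controls of the *Ets1* table, 5.50 times higher, and 640 ± 180 in those of the *Grk2* table, 2.59 times higher. The spleen control groups themselves differed by 2.12 times and did not overlap. *Tubb4b* showed the same order, with 32.5 ± 4.37 RPM in the parenchyma, 147 ± 29.8 in the first and 74.5 ± 6.90 in the second set of spleen controls. *Tubb5*, the β-tubulin gene with the most reads, had 653 ± 113 RPM in parenchymal controls against 1683 ± 153 and 1141 ± 191 in spleen controls, 2.58 and 1.75 times higher. For *Tubb4b* and *Tubb5* too the spleen controls of the *Ets1* table lay above those of the *Grk2* table without overlap, as they did for 32.0% of the 6520 genes.

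*Tuba4a* was the member with the most even spleen levels, at 129 ± 10.1 and 127 ± 19.6 RPM, against 62.6 ± 11.8 in the parenchyma. *Tuba1a*, known mainly from neurons, was low everywhere. It had 11.8 ± 4.54 RPM in parenchymal controls, 23.7 ± 9.92 in the first and 40.4 ± 0.629 in the second set of spleen controls, 3.44 times the parenchymal level, and its parenchymal and spleen ranges overlapped. For the other 5 genes all parenchymal controls lay below all 6 spleen controls. This held for 13.8% of the 6520 genes. The median log2 ratio of parenchyma to spleen was -1.77 over the 6 genes and -0.10 over all 6520. It was -1.28 against the spleen controls of the *Grk2* table. Leaving mitochondrial reads out of the totals moved the median of all genes by 0.16, to 0.05, and that of the 6 genes to -1.61. With TMM factors common to the 9 control libraries the median of the 6 genes was -1.66, and with the authors' size factors -1.69. Tissue and experiment cannot be told apart in this comparison, since no table holds libraries of both tissues, and it was not tested. In bulk libraries, fewer cells that express a gene and less RNA per cell cannot be told apart either.

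**Figure D1:**
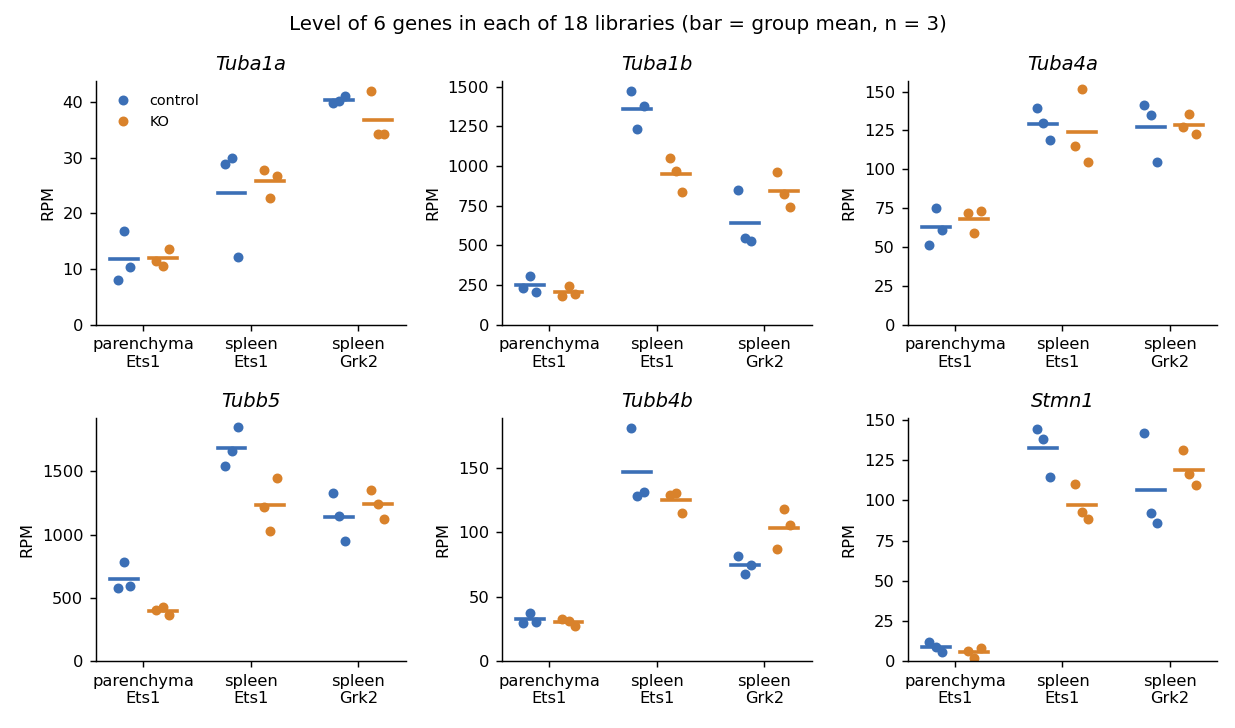
Reads per 1000000 reads on genes (RPM, vertical axis, from 0, a different scale for each gene) of 6 tubulin and stathmin genes in 18 libraries, with control libraries in blue, KO libraries in orange and a bar at each group's mean (n = 3). The parenchymal libraries lie below all spleen libraries for every gene shown except *Tuba1a*, and *Tubb5* is below its controls in the KO libraries of both *Ets1* tables.

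In the parenchyma, *Tubb5* was the member that differed most clearly between *Ets1* KO and control cells. This gene (ENSRNOG00000061216, chromosome 20, 3422460 to 3426371 in Rnor_6.0) had 564, 613 and 517 normalized counts in KO libraries against 810, 1139 and 842 in controls. The highest KO library was below the lowest control, and *Tubb5* was lower in all 3 pairs of equal replicate number. The log2 fold change was -0.71, a mean 39.3% lower in KO cells, with an SE of 0.08 that became 0.14 without the trend. *Tubb4b*, in contrast, had 46.5, 44.5 and 38.5 normalized counts in KO libraries and 41.1, 54.5 and 43.2 in controls, with a log2 fold change of -0.09 (SE 0.21). Its groups overlapped.

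Among the α-tubulins in the parenchyma, *Tuba1b* was lower in all 3 pairs, with 253, 347 and 278 normalized counts in KO libraries against 326, 444 and 287 in controls. The ranges overlapped, and the log2 fold change was -0.26 (SE 0.10). *Tuba4a* (0.12, SE 0.15) and *Tuba1a* (0.07, SE 0.33) differed by less than their errors, and each was lower in 1 of 3 pairs. *Stmn1* had 9.10, 3.03 and 11.3 normalized counts in KO cells and 16.8, 13.2 and 7.86 in controls, from 3 to 18 reads per library. Its log2 fold change of -0.72 (SE 0.42) moved between -1.32 and -0.17 when a replicate was left out, and the third pair ran the other way. *Tubb5* was thus the only 1 of the 6 genes whose KO and control libraries did not overlap. In this table, 10.5% of 7002 genes had all KO libraries below all controls. The median log2 fold change was -0.17 over the 6 genes and -0.03 over all genes. By pair, the median over the 6 genes was -0.10, -0.51 and 0.10, so the second pair weighed most and the third ran the other way.

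In the spleen, 3 of the 6 genes had all *Ets1* KO libraries below all controls, namely *Tuba1b*, *Tubb5* and *Stmn1*. Over all 6979 genes of this table the share was 8.88%. *Tuba1b* had 1374, 1271 and 1171 normalized counts in KO libraries against 1954, 1591 and 1938 in controls, a log2 fold change of -0.52 (SE 0.11). *Tubb5* had 1587, 1343 and 2029 against 2049, 2145 and 2598, a log2 fold change of -0.47 (SE 0.12). Its highest KO library, the third, lay just below the lowest control. That library is also the one with the high mitochondrial share, and without the third pair the log2 fold change of *Tubb5* was -0.52.

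*Stmn1* (ENSRNOG00000016810, chromosome 5, 152680406 to 152686806 in Rnor_6.0) had in the spleen 144, 122 and 124 normalized counts in *Ets1* KO libraries and 191, 179 and 161 in controls, with a log2 fold change of -0.45 (SE 0.14). These 3 genes were therefore between 26.7% and 30.4% lower on average in KO cells. *Tubb4b* had a log2 fold change of -0.22 (SE 0.14), with 169, 171 and 162 normalized counts in KO libraries against 241, 166 and 185 in controls, where the first control library stood above the rest. *Tuba4a* (-0.08, SE 0.14) and *Tuba1a* (0.21, SE 0.28) overlapped between the groups. *Tuba1a* in the third control library rested on 11 reads, and without that pair its log2 fold change was -0.22. The median over the 6 genes was -0.33, against 0.00039 over all genes.

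The *Ets1* contrasts of the 2 tissues use separate libraries and separate controls. On the ratio of each pair, parenchyma minus spleen, the log2 difference between tissues was -0.24 (SE 0.14) for *Tubb5*, 0.26 (SE 0.14) for *Tuba1b* and -0.27 (SE 0.38) for *Stmn1*. It was 0.20 (SE 0.21) for *Tuba4a*, 0.12 (SE 0.23) for *Tubb4b* and -0.14 (SE 0.43) for *Tuba1a*. No member had 3 pairs of one sign in one tissue and 3 of the other sign in the other.

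Between *Grk2* KO and control cells of the spleen, 5 of the 6 genes had a positive log2 fold change, where in all genes 46.0% were below 0. *Tubb4b* (ENSRNOG00000010170, chromosome 3, 2441732 to 2444281) was higher, with 112, 153 and 137 normalized counts in KO libraries against 104, 87.6 and 99.2 in controls. Its log2 fold change was 0.46 (SE 0.13, or 0.17 without the trend), and its groups did not overlap. *Tuba1b* was higher in all 3 pairs, with 1238, 1071 and 967 normalized counts against 1083, 709 and 699. The first control library overlapped the KO libraries, and the log2 fold change was 0.42, with an SE of 0.07 that became 0.12 without the block and 0.14 without the trend. The first control was also the highest of its group for *Tubb4b*, *Tubb5*, *Tuba4a* and *Stmn1*, but not for *Tuba1a*.

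*Tubb5* was 0.12 higher on the log2 scale (SE 0.07, or 0.12 without the trend) in *Grk2* KO cells, with 1738, 1607 and 1466 normalized counts against 1701, 1481 and 1262. *Stmn1* had 169, 151 and 143 normalized counts against 181, 120 and 114, a log2 fold change of 0.18 (SE 0.12) with the first pair running the other way. *Tuba4a* (0.02, SE 0.11) and *Tuba1a* (-0.14, SE 0.19) overlapped. Of the 6 genes, *Tubb4b* alone had all KO libraries above all controls, a pattern of 7.59% of 6985 genes. The median log2 fold change was 0.15 over the 6 genes and 0.02 over all genes.

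**Figure D2:**
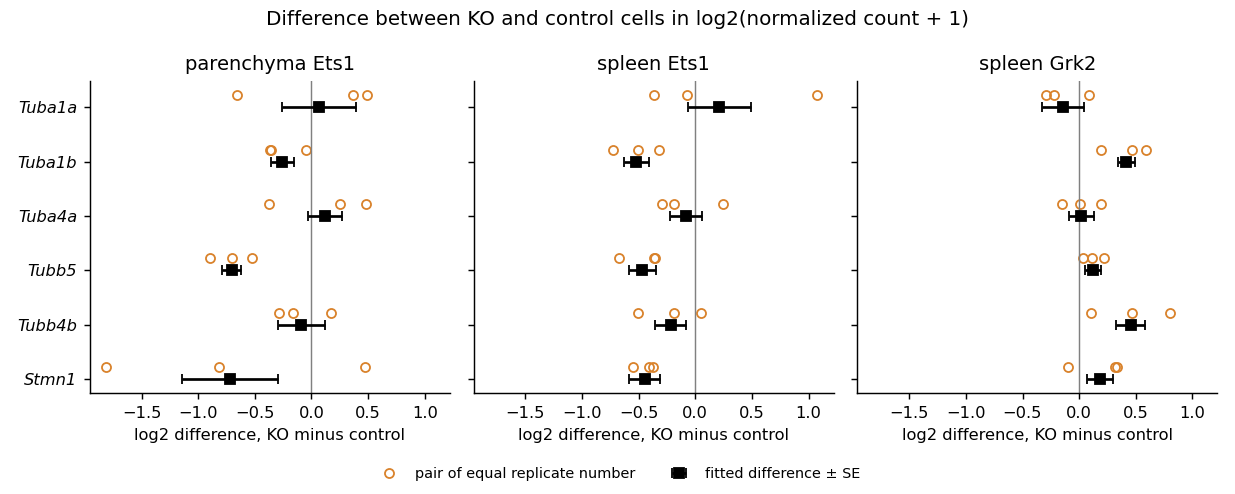
Difference in log2(normalized count + 1), KO minus control (horizontal axis), of 6 genes in 3 tables, with the fitted difference and its SE as black squares and the 3 pairs of equal replicate number as open circles. *Tubb5* lies at -0.71 in the parenchyma and -0.47 in the spleen of the *Ets1* experiments and at 0.12 in the *Grk2* experiment, while the pairs of *Tuba1a* fall on both sides of 0 in all tables.

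Across the 6 groups, the mean level of *Tuba1b* in RPM was highest in the spleen controls of the *Ets1* table (1360 ± 121), followed by *Ets1* KO cells of the spleen (952 ± 110). Next came *Grk2* KO cells (843 ± 111), the controls of the *Grk2* table (640 ± 180), parenchymal controls (247 ± 52.4) and parenchymal *Ets1* KO cells (207 ± 32.6). Only the first from the second group and the fourth from the fifth were separated without overlap. For *Tubb5* the order was spleen controls of the *Ets1* table (1683 ± 153), *Grk2* KO cells (1238 ± 113), spleen *Ets1* KO cells (1229 ± 210), controls of the *Grk2* table (1141 ± 191), parenchymal controls (653 ± 113) and parenchymal *Ets1* KO cells (399 ± 31.9). Here the 3 middle groups overlapped and the other neighbours did not. The 4 spleen groups of *Stmn1*, between 97.1 ± 11.3 and 132 ± 15.6 RPM, overlapped with their neighbours in the order, and parenchymal KO cells (5.54 ± 3.06) overlapped with parenchymal controls (8.88 ± 3.24).

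The make-up of the tubulin pool by isotype was compared as the share of reads on all α-tubulin or all β-tubulin genes. *Tubb5* took 94.5% ± 0.424 of β-tubulin reads (SD, n = 3) in parenchymal controls and 90.5% ± 0.640 in parenchymal *Ets1* KO cells, and the groups did not overlap. The share of *Tubb4b* was 4.73% ± 0.158 and 6.92% ± 0.459, also without overlap, while its level was 32.5 ± 4.37 and 30.5 ± 2.98 RPM. Within a family a share rises when another falls, so these shares are not separate results. In the spleen, *Tubb5* took 91.8% ± 2.24 and 90.3% ± 2.00 in control and *Ets1* KO cells, and 93.2% ± 1.24 and 91.8% ± 1.39 in control and *Grk2* KO cells. Among α-tubulin reads, *Tuba1b* took 89.8% ± 1.45 in the spleen controls and 86.4% ± 1.63 in the KO cells of the *Ets1* table. The shares in the parenchyma were 76.4% ± 3.37 and 71.6% ± 5.19, and those of *Grk2* controls and KO cells 78.8% ± 3.38 and 83.5% ± 1.35. For *Tuba1b* the shares of KO and control libraries did not overlap in either spleen table, but did in the parenchyma. For *Tubb5* they overlapped in both spleen tables. Summed over each family, β-tubulin reads were 0.639 times and α-tubulin reads 0.888 times the control level in parenchymal *Ets1* KO cells. In spleen *Ets1* KO cells the factors were 0.741 and 0.728, and in *Grk2* KO cells 1.10 and 1.25. Shares of 3′ reads do not compare isotypes per length, and reads of close copies may be assigned unevenly.

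**Figure D3:**
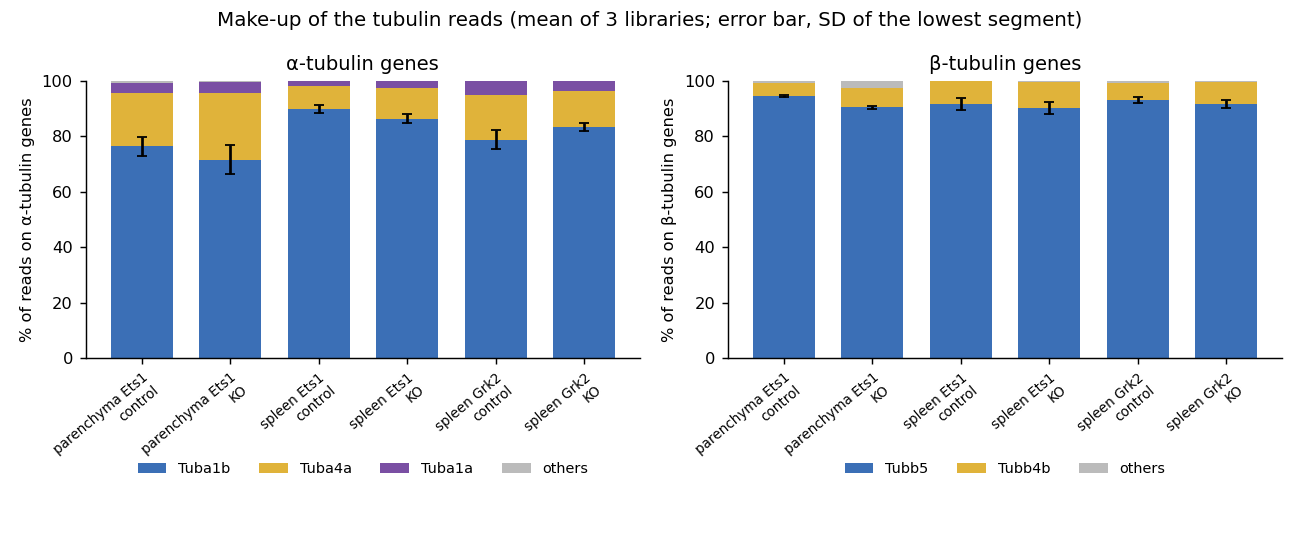
Share of reads on α-tubulin genes (left) and β-tubulin genes (right) taken by each isotype in 6 groups, as the mean of 3 libraries, with the SD of the lowest segment as error bar. *Tuba1b* takes between 71.6% and 89.8% of α-tubulin reads, and *Tubb5* between 90.3% and 94.5% of β-tubulin reads.

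The 3 low members were described by their reads. *Tubb6* had 0 reads in all 12 spleen libraries, which allows up to 0.172 RPM over these libraries together. In the parenchyma it had 2, 1 and 3 reads in control libraries and 6, 14 and 6 in *Ets1* KO libraries. Pooled over the libraries this was 1.34 and 6.42 RPM, a ratio of 4.80. With 3 reads over the group as the floor, the counted level in parenchymal *Ets1* KO cells was 13.4 times the floor of spleen *Ets1* KO cells. For the controls of the same tables the factor was 1.48. These floors cover counting error only, and the error of the parenchymal counts is not included. Tissue and experiment cannot be told apart here either. Marker genes of myeloid cells and microglia in the parenchyma summed to between 17.5 and 36.2 RPM in controls and between 26.9 and 46.1 in KO cells. Most of these reads were on *Lyz2*, with reads on 8 of 10 markers and *Adgre1* and *Cd163* at 0. *Nefl* was at 2.01 to 3.48 and 5.76 to 17.0 RPM. The 3 endothelial markers in the tables were at 0 in all parenchymal libraries. The part of other cells in the *Tubb6* reads was not tested.

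*Tubb2a* had between 0 and 14 reads per library, 8 and 13 over the parenchymal controls and KO libraries, 4 and 23 over those of the spleen *Ets1* table, and 27 and 26 over those of the *Grk2* table. The spleen *Ets1* KO libraries had more reads on all genes as well, and the pooled levels were 1.21 and 3.67 RPM. *Tuba1c* had 16 reads in the 18 libraries, 6 of them in a single parenchymal control. Of 13 further tubulin and stathmin genes, 6 had no read in any library, and 6 had reads with a mean of at most 1.84 normalized counts in a table. The exception was *Tube1*, which encodes ε-tubulin of the centriole, with 20.6 ± 12.4 normalized counts in spleen controls and 24.4 ± 0.828 in *Ets1* KO cells.

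Genes that act on tubulin were tested in the same tables with limma, and adjusted p-values are from its fit over all genes with Benjamini-Hochberg adjustment. They too were listed with earlier results of these data known. The 84 genes listed hold the further tubulins and stathmins, the chaperones and cofactors that fold tubulin, the decay factors of tubulin mRNA, the γ-tubulin complex that starts microtubules, proteins that bind their lattice and ends, and the enzymes that modify tubulin. None of the 48 genes tested in the parenchyma passed an adjusted p of 0.05, and none had an unadjusted p under 0.05. edgeR's quasi-likelihood test and DESeq2 called 0 as well. Of 7002 genes, 5.23% passed in this table. The 19 folding genes lay between -0.33 and 0.35 on the log2 scale, with a median of 0.01.

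In the spleen *Ets1* table, 3 of 46 genes passed, against 2.22% of 6979 genes. *Pfdn1* and *Pfdn5*, subunits of the prefoldin that hands new actin and tubulin chains to the chaperonin, rose in *Ets1* KO cells. *Pfdn1* had 358, 308 and 323 normalized counts in KO libraries and 208, 231 and 201 in controls, a log2 fold change of 0.63 (SE 0.12, limma adjusted p = 0.00681). The KO libraries were all above the controls. *Pfdn5* had 326, 254 and 243 against 165, 186 and 196, a log2 fold change of 0.58 (SE 0.14, limma adjusted p = 0.0234). *Cdk5rap2*, which anchors γ-tubulin complexes at the centrosome, fell by 0.54 on the log2 scale (SE 0.13, limma adjusted p = 0.0289), with 128, 135 and 161 normalized counts in KO libraries against 197, 184 and 240 in controls. Without replicate 1 none of these 3 calls held, and over the alternatives adjusted p-values ranged from 2e-04 to 0.451 for *Pfdn1*, from 0.00072 to 0.685 for *Pfdn5* and from 0.00862 to 0.559 for *Cdk5rap2*.

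The other prefoldin and chaperonin genes did not pass. The 18 folding genes tested in the spleen *Ets1* table had a median log2 fold change of 0.13 and a highest value of 0.63. The decay factors *Ttc5* (0.37, SE 0.39), *Scaper* (0.16, SE 0.13) and *Cnot11* (-0.40, SE 0.22) did not pass in limma's fit, and neither did any of the 12 genes of microtubule lattice and ends. In the *Grk2* table, 0 of 48 genes passed in limma, against 1.56% of 6985 genes, and 2 had an unadjusted p under 0.05. One of these was *Map9*, a protein of the spindle and microtubule lattice, with a log2 fold change of -0.39 (SE 0.12), a limma adjusted p of 0.0664 and an edgeR adjusted p of 0.0442. DESeq2 called 0. Of 45 genes compared between tissues, *Pfdn1* alone passed a test of a different *Ets1* effect, a share near the 2.10% of 6520 genes that passed. The log2 difference, parenchyma minus spleen, was -0.63 (SE 0.16, limma adjusted p = 0.0272). It did not pass when any 1 replicate was left out, with limma adjusted p-values of 0.301, 0.109 and 0.0633, or without the trend (0.327). In the parenchyma *Pfdn1* had a log2 fold change of -0.0015 (SE 0.10).

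**Figure D4:**
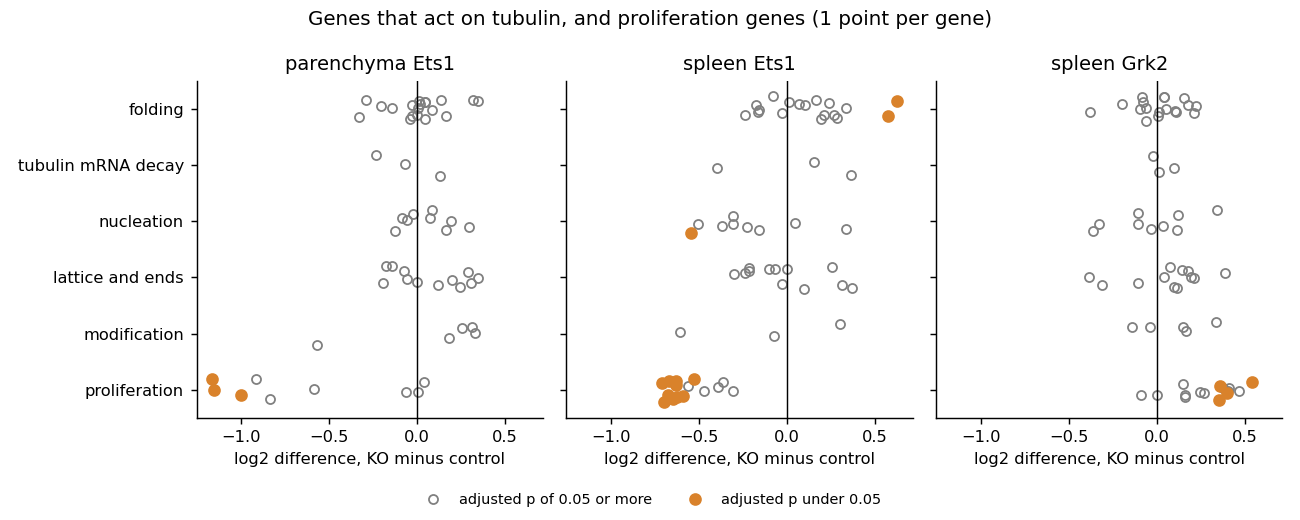
Difference in log2(normalized count + 1), KO minus control (horizontal axis), of genes that act on tubulin and of proliferation genes, 1 point per gene and 1 row per list, in 3 tables. Filled points passed a limma adjusted p of 0.05: none of the genes acting on tubulin in the parenchyma and *Grk2* tables and 3 in the spleen *Ets1* table, beside 3, 10 and 4 proliferation genes.

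Genes of the cell cycle were set beside the tubulins, since microtubules build the spindle. Their list was chosen with earlier results of these data known, so the shares of all genes given beside its calls are no test of the list. The summed level of 15 such genes was 486 to 674 RPM in parenchymal controls, 4966 to 5546 in the spleen controls of the *Ets1* table and 2247 to 3187 in those of the *Grk2* table. The mean levels of *Tuba1b*, *Tubb5*, *Tubb4b* and *Stmn1* had the same order, although the spleen controls of *Stmn1* overlapped. *Tuba4a* was level between the spleen controls, and *Tuba1a* ran the other way between them. In the parenchyma, 3 of 9 genes tested fell in *Ets1* KO cells, against 2.96% of 7002 genes with lower calls, and none rose. They were *Top2a* (topoisomerase II), *Mki67* (the Ki-67 antigen) and *Cenpf* (a kinetochore protein), with log2 fold changes of -1.16, -1.15 and -0.997.

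In spleen *Ets1* KO cells 10 of 15 fell and none rose, against 1.20% of 6979 genes, with *Mcm2* at -0.71, *Mki67* at -0.67 and *Top2a* at -0.63. Without replicate 1 none of the 15 passed, and 10 of them had an unadjusted p under 0.05. In *Grk2* KO cells 4 of 15 rose, against 0.931% of 6985 genes: *Cdk1* (0.54), *Birc5* (0.40), *Top2a* (0.36) and *Cenpf* (0.36). None of the 15 passed without replicate 2 or without the replicate block. The median log2 fold change of the proliferation genes was -0.83 in the parenchyma, -0.62 in the spleen *Ets1* table and 0.36 in the *Grk2* table. In the same order, values were -0.71, -0.47 and 0.12 for *Tubb5*, -0.26, -0.52 and 0.42 for *Tuba1b* and -0.72, -0.45 and 0.18 for *Stmn1*. They were -0.09, -0.22 and 0.46 for *Tubb4b*, 0.12, -0.08 and 0.02 for *Tuba4a* and 0.07, 0.21 and -0.14 for *Tuba1a*. The part of cell division in the tubulin values was not tested.

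Within groups, the genes whose libraries deviated most like a member were found by Pearson's correlation over the 18 libraries, after the mean of each group was subtracted from log2(normalized count + 1). Among 2908 genes with a mean of at least 50 in every table, those most like *Tuba1b* were *Mcm3* (r = 0.91), *Smc2* (r = 0.90), LOC100359583 (r = 0.89), *Csrp1* (r = 0.85) and *Lig1* (r = 0.85). Those most like *Tubb5* were *Plekha3* (r = 0.89), *Lsp1* (r = 0.87), *Taf10* (r = 0.85), *Lrpprc* (r = 0.85) and *Ranbp1* (r = 0.85). Those most like *Stmn1* were *Ccng1* (r = 0.86), *Polr2g* (r = 0.82), *Szrd1* (r = 0.80), *Exosc9* (r = 0.80) and *Mrps24* (r = 0.79). The values of a library share its depth and size factor, and the 5 genes are the highest of many coefficients. Among the members, *Tuba1b* and *Tubb5* deviated together with r = 0.56, the highest of 15 pairs, and the coefficient of *Stmn1* was 0.09 with *Tuba1b* and -0.04 with *Tubb5*.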

How the data were processed

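T_MBP cells were measured in 18 libraries of 3′ mRNA-seq, 3 per group, grouped by the sample labels. According to the methods, the authors aligned single-end reads without trimming to Rnor_6.0 with STAR 2.7.2b, counted them per gene with HTSeq-count 1.0.0, and scaled them with DESeq2 (poscounts). The signal deposited by the authors is the read count per gene divided by the size factor of its library, within each of 3 tables scaled separately. Tables of the authors' own fold changes and p values, and 8 columns of human values, were not used.

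All positive values (100%) were whole multiples of 1 step per library (tolerance 0.01), from which reads were recovered. Levels across tables were expressed per 1000000 recovered reads on genes (RPM), so depth (898092 to 2248258 reads) sets the precision of low genes. Genes with a mean of at least 10 normalized counts were fitted on log2(normalized count + 1) in R 4.3.3 with limma 3.58.1 (lmFit, eBayes with a trend). Replicate number was a block, and the threshold was a two-sided adjusted p under 0.05. For the tissue difference of the *Ets1* effect, limma was fitted to the log2 ratios of the pairs, 3 per tissue, with the trend fitted on the mean level of each gene. Each gene has 2 residual degrees of freedom within a table, so the fits lean on the trend of variance with level. The prior degrees of freedom were 22.0 in the spleen *Ets1* table, 141 in the *Grk2* table and infinite in the parenchyma. In the parenchyma, each SE and p value therefore rests on the trend over all genes, and not on the gene's own spread. In the *Grk2* table they rest on it almost wholly. No p value covers more than the spread between these libraries. The study states that its replicates are biological, and the labels do not name the animals. The block follows the batch correction per animal of the methods. Correlations between libraries of equal number ranged from -0.0030 to 0.18 and did not all exceed 0.1 in any table. They were above the highest correlation with another number throughout the spleen *Ets1* table. This did not hold for replicate 3 in the parenchyma or replicate 2 in the *Grk2* table. The numbers were therefore not shown to pair the libraries in every table. edgeR 4.0.16 and DESeq2 1.42.0 on recovered reads were alternatives, beside other pseudocounts, minima and scalings, no block, no trend and each replicate left out.

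The members and gene lists were chosen with earlier results of these data known. The genes named are the 9 members, the edited genes, the related genes that passed a test or were close to it, examples of the lists, and the 5 genes most correlated with *Stmn1*, *Tuba1b* and *Tubb5*. *Map9*, the decay factors and the markers named singly were added once their values were known. The limma fit was tested on simulated data, where it recovered between 77.8% and 81.6% of the genes changed in the simulation. This share depends on the simulated size of change and spread. It therefore does not give the power of the fit for the differences described here, and the share of false calls is not reported. Markers were listed for T cells, B cells, myeloid cells with microglia, neurons, astrocytes and oligodendrocytes (glia), and endothelium. B cell markers summed to at most 9.89 RPM in any library, and glial markers to at most 64.0, mostly *Mbp*, in the parenchyma. Promoter sequences were read from a RefSeq table of GRCr8, and no protein sequence and no sequence of Rnor_6.0 was used.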

Additional observations from a re-analysis of the deposited data

Results flagged for a closer look

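The effect of *Ets1* editing on *Pfdn1*, a prefoldin subunit, differed between tissues by -0.63 on the log2 scale (parenchyma minus spleen) in a test of the difference itself, with a limma adjusted p of 0.0272. The 3 spleen pairs were all higher in KO cells, whereas in the parenchyma control libraries had 268, 341 and 263 normalized counts and KO libraries 284, 287 and 295. The adjusted p was 0.301, 0.109 and 0.0633 without replicates 1, 2 and 3, and 0.327 without the trend.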

How the results depend on the processing

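Leaving out the replicate block reduced the related genes called in the spleen *Ets1* table from 3 to 1. Over all genes, the calls without the block were 200 against 366 in the parenchyma, 71 against 155 in the spleen *Ets1* table and 19 against 109 in the *Grk2* table. In that spleen table DESeq2 called 1 related gene, eBayes without a trend 0, and leaving out a replicate gave between 0 and 3. The median log2 fold change of the 6 members there was -0.45 with a minimum of 50, which drops *Tuba1a*, and between -0.36 and -0.27 with a replicate left out. In the *Grk2* table edgeR called 1 related gene, where limma called 0. For the tissue difference, no related gene passed without a trend or without any 1 replicate (0 to 0, against 1). The control ratio was -1.28 against the spleen controls of the *Grk2* table. The cause of these changes was not tested. The other 94 counts and medians tried stayed within 1.5 times or 1 SD of the reported value. Some of these medians could not move. Dropping the block leaves them fixed, and without a minimum they were still taken over the same 6 genes. In the parenchyma the SD of the 3 pair medians was 0.31, larger than the median of -0.17 itself. A small change of sign would have passed this rule there. Values of single members near 0 changed sign under some alternatives. Dropping the block or the trend cannot move a member's fold change, and leaving out 1 of 3 pairs cannot move it by 1 SD of the pairs, so these say nothing of its stability. Without a trend limma called 3, 0 and 0 of all genes in the 3 tables, and DESeq2 90, 50 and 9. No proliferation gene passed without a trend, and DESeq2 called 3, 4 and 0 of them. Without replicate 1, 3 genes passed in the spleen *Ets1* table, and without replicate 2, 9 passed in the *Grk2* table. With upper quartile scaling, 183 genes were higher and 164 lower in parenchymal *Ets1* KO cells, against 159 and 207 as reported, 34 and 42 in *Grk2* KO cells, against 65 and 44, and 115 and 99 in spleen *Ets1* KO cells, against 71 and 84. Depth limits *Tuba1c*, *Tubb2a*, *Tubb6* and, in the parenchyma, *Stmn1*.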

Other observations

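*Nefl*, a neurofilament gene in the neuronal marker list, was at 15.8 to 36.3 RPM in spleen control cells of the *Ets1* table, 52.4 to 84.1 in spleen *Ets1* KO cells and at most 0.848 in any library of the *Grk2* table. The other 7 neuronal markers summed to at most 2.47 RPM in these spleen libraries. These values were chosen after they were seen, and the difference was not tested.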
